A study of Mus musculus with 77 samples.

Results

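At 6000 ppm, the highest dose that both compounds were given, the livers of mice exposed to di(2-ethylhexyl) phthalate (DEHP) were set directly against those of mice exposed to n-butyl benzyl phthalate (BBP). The samples were chosen by their labels alone, which gave 4 DEHP and 4 BBP samples of the 77 in the series. All 8 came from male mice of the B6C3F1 strain, a hybrid used in long-term toxicity studies, and liver RNA was taken after 7 days of exposure. The labels give the dose in ppm and do not name the medium, and the age of the mice is not given in the sources used here. The study as a whole exposed mice to graded doses of 3 phthalates and phenobarbital, and it chose phthalates that differ in how strongly they act on the receptor PPARA. Phthalate controls (10 samples at 0 ppm) are given beside the 2 groups as background. The DEHP and BBP samples at 3000 and at 1500 ppm (4 per group) are given as the comparisons most like the one at 6000 ppm. No label ties a sample to an animal of its own. A p-value here reflects the spread between samples within groups, pooled over all 18 groups of the series. That spread may be technical.

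Both compounds are diesters of phthalic acid. DEHP carries a pair of branched 2-ethylhexyl chains, and BBP carries a butyl chain and a benzyl group. In the body such diesters are split to monoesters. PPARA is a nuclear receptor of hepatocytes that binds fatty acids and many synthetic acids, pairs with RXR and turns on genes for taking up, activating and oxidizing fatty acids in peroxisomes and mitochondria. In rodent liver its strong activators enlarge the peroxisome compartment and drive hepatocytes to divide. CAR and PXR are related receptors that turn on drug-metabolizing enzymes such as members of the Cyp2b and Cyp3a families.

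RNA was measured on single-colour Illumina bead arrays with 1 signal per gene, and every level below is a log2 normalized intensity. On the 8 arrays 42.4% to 46.5% of genes were detected, the mean signal ran from 344.7 to 483.9, and the rank correlation between arrays was 0.911 to 0.975. Precision is limited by 4 arrays per group and, for dim genes, by the signal over background. The samples carried liver markers. Of 11 hepatocyte markers on the array 10 were detected, and the list summed to 48094 to 49144 (linear normalized intensity) with DEHP and 52205 to 61837 with BBP. All 11 were lower with DEHP by a median of 0.28 and none passed the test. Of the markers on the array, 5 of 10 for T and NK cells, 2 of 6 for B cells, 5 of 7 for bile ducts, 3 of 7 for fat cells and 2 of 8 for pancreas were detected in at least 1 of the 8 samples. Those detected in none included Cd3e, Cd8a and Cd4 of T cells, Ms4a1 of B cells, Krt19 of bile ducts, Adipoq of fat cells and Prss2 of pancreas. Fat cell markers summed to 2301 to 4354 with DEHP and 2260 to 7394 with BBP, and pancreas markers to 502 to 874 and 710 to 1203. No marker of the 11 cell type lists differed by the test. The 14 Kupffer cell and macrophage markers summed to 2497 to 3325 with DEHP and 2483 to 3175 with BBP. Red cell markers ran from 3152 to 9151 and from 4737 to 12229, with a median difference of -0.53. Among the 10 controls, the 3 whose labels carry the number 32, which are also those labelled REP1, stood apart at fatty acid genes. Their Acot3 levels were 6.13 to 6.89, against 4.35 to 4.70 in the other 7, and their Acot1 levels were 9.99 to 10.93, against 6.09 to 7.89, and they were the highest controls for Cyp4a14 and Ehhadh too. Without these 3 controls 272 genes were called between DEHP and BBP, against 254 with them. BBP replicate 1, labelled REP1 too, was the highest BBP sample for Cyp4a14 and Acot1 at 1500, 3000 and 6000 ppm. For Acot3 it was the highest at 1500 and 3000 ppm and the lowest at 6000 ppm. For Ehhadh it was the highest at none of these doses. Whether REP1 marks a shared condition was not tested. In whole liver, fewer cells of a type and less RNA per cell cannot be told apart.

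The livers exposed to DEHP differed from those exposed to BBP at 254 of 11324 genes tested (2.24%). DEHP gave the higher level at 189 of them (1.67%) and the lower level at 65 (0.574%). A gene was called where limma's adjusted p, by Benjamini-Hochberg over all genes tested, was under 0.05, and 1096 genes had an unadjusted p under 0.05. At least 2-fold differences were found for 78 of the higher and 13 of the lower genes. For 199 of the 254 the 4 DEHP and the 4 BBP samples did not overlap, as for 692 of all genes tested (6.11%). The median difference over all genes was -0.00. Leaving out single samples moved the count: 111 genes were called without DEHP replicate 2, 153 without DEHP replicate 3, 163 without BBP replicate 2 and 165 without BBP replicate 4. With the 8 samples fitted alone 63 genes were called, 48 of them among the 254, and with the replicate numbers added as a block none were. Of the 61 called genes named by rule, 16 stayed called with the 8 samples alone. Among those lost were Krt23 (adjusted p = 0.0615), Ly6d (0.0655), Pdk4 (0.108), Cyp3a11 (0.151) and Cyp2b9 (0.409). An SE below rests on the spread over all groups of the fit. It can be too small for a gene that varied more in these 2 groups than elsewhere.

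The size of a difference depended on the background correction where a gene was dim. Of the 61 called genes, 24 had a difference more than 1.5 times smaller under at least 1 of 5 other backgrounds and scalings, and for 22 of the 24 the smallest value came with the background of neqc. With neqc Krt23 differed by 2.41 in place of 3.89, Ly6d by 1.86 in place of 3.30, Clstn3 by 1.11 in place of 2.39 and Acot3 by 3.44 in place of 5.17. The fall was larger for Adam32 (0.57), Fbp2 (0.53), Cyp2c39 (0.36), Acot2 (0.15) and Abcd2 (0.15). Crat differed by 0.98 in place of 1.72, Slc22a7 by -0.60 in place of -1.25 and Gna14 by -0.74 in place of -1.17. Folds of dim genes below hold for the background used here.

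The DEHP samples were not equally far from BBP. Among the 254 called genes, DEHP replicate 1 was the DEHP sample nearest to BBP for 196 (77.2%), and DEHP replicate 2 was the farthest for 152. BBP replicate 1 was the BBP sample nearest to DEHP for 112. These positions are descriptions of genes picked for the difference between the same samples. Where one sample decides a value below, it is named there.

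**Figure D1:**
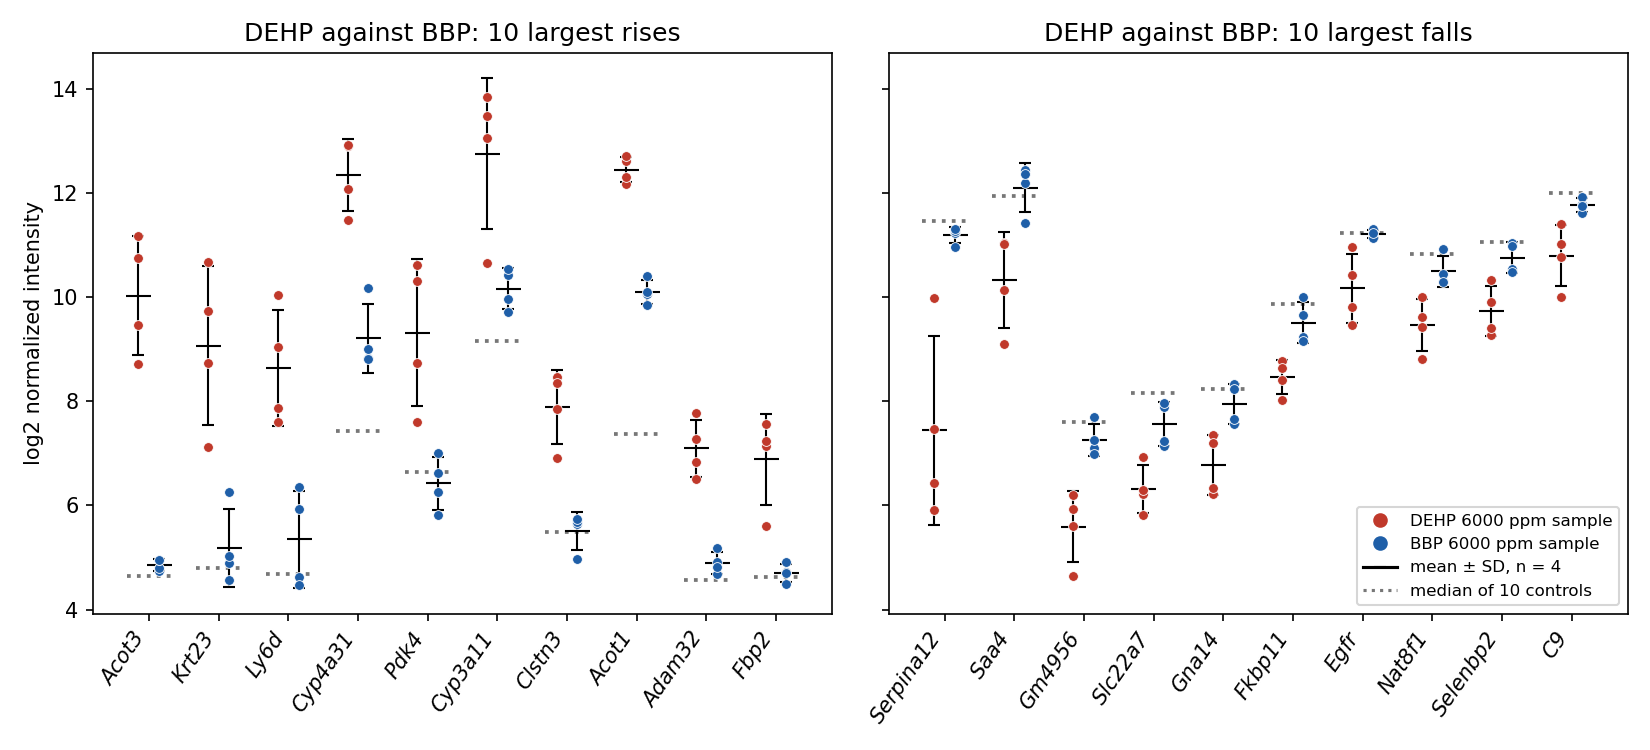
Log2 normalized intensity (vertical axis) of the 10 genes most raised and the 10 most lowered with DEHP against BBP at 6000 ppm, among called genes whose groups do not overlap. Points are samples, bars are the mean ± SD (n = 4) and dotted lines are the median of the 10 controls; for most of the raised genes other than Cyp4a31, Cyp3a11 and Acot1 the BBP samples lie around the controls while the DEHP samples lie above both.

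Over 6 lists of fatty acid genes, 32 of 104 tested members were higher with DEHP and 1 was lower, and the others did not pass. Of all genes tested 1.67% were higher and 0.574% lower, the shares to set beside the count of each list below. The median difference of the 104 was 0.37, against -0.00 over all genes tested. The lists were omega-hydroxylases, acyl-CoA thioesterases, peroxisomal beta-oxidation, peroxins (proteins that build peroxisomes), mitochondrial fatty acid oxidation, and lipid uptake, droplets and fasting signals. Per sample, the mean of these genes was 9.07, 9.50, 9.47 and 9.37 with DEHP and 8.84, 8.69, 8.69 and 8.76 with BBP, and the groups did not overlap. Without DEHP replicate 2 the count was 21, and with each array centred on its median it was 17.

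The acyl-CoA thioesterases, which split fatty acyl-CoA into the free acid and coenzyme A, held the gene with the largest difference. Acot3 stood at 8.71, 11.18, 10.77 and 9.47 in the DEHP samples and at 4.73, 4.79, 4.96 and 4.96 in the BBP samples. The controls had a median of 4.64. All 4 BBP samples lay just above the 7 controls not numbered 32 (4.35 to 4.70) and below the 3 controls that were (6.13 to 6.89), and all DEHP samples lay above every control. DEHP was 36.1-fold above BBP (log2 difference 5.17, SE 0.516, limma adjusted p = 3.56e-11). Its relative Acot1, the cytosolic enzyme for long-chain acyl-CoA, was high in both groups. Acot1 had 12.19, 12.61, 12.71 and 12.31 with DEHP and 10.40, 10.06, 9.84 and 10.10 with BBP, against a control median of 7.37. The groups did not overlap and DEHP was 5.11-fold higher (2.35, SE 0.609, limma adjusted p = 0.0184), a call that ended when any of 5 samples was left out (2.27 to 2.35, adjusted p 0.0503 to 0.0756; DEHP replicates 2 and 3, BBP replicates 2, 3 and 4). Acot4, a peroxisomal thioesterase, was 4.11-fold higher (2.04, SE 0.352, limma adjusted p = 5.85e-05). Its DEHP samples had 8.52, 9.63, 10.02 and 9.52 and its BBP samples 6.91, 7.45, 7.51 and 7.66. In all, 6 of 10 tested thioesterases were higher with DEHP, including mitochondrial Acot2 (1.13) and peroxisomal Acot8 (1.04), and none was lower. The list median was 0.83, and 0.47 to 0.83 over the other backgrounds and scalings. Several of these genes have near-identical copies beside them, and how far an array probe for one reads another was not tested.

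Promoter windows were searched for the sequence that PPARA and RXR are known to bind, a direct repeat of AGGTCA with 1 base of any kind (N) between the copies, on both strands and with at most 2 mismatches. The windows are RefSeq's on GRCm38.p6, 300 bases each, with 250 before the gene's start and 50 after it. Of the 23 fatty acid genes higher with DEHP that had a window, 3 held a match: Acot4, Acox2 and Slc25a20. The share was 10.7% of the 75 fatty acid list genes tested with a window, 3.98% of 8527 tested genes with one and 4.40% of all 27025 genes with one. Among genes higher with DEHP it was 4.93% of 142, and among genes lower with DEHP 8% of 50. These shares are descriptions, and a match is not a shown binding site. The 3 windows are printed because they carry a match in members described here, with the match in capitals. Substitutions are counted from 1 at the 5′ end of the searched sequence, on the strand of the match. Acot4 lies at chr12:84038129-84038428 on the plus strand, and its match starts at base 238 of the window on the opposite strand (A1C, T4C). Acox2, a peroxisomal oxidase that acts on bile acid intermediates and branched fatty acids, lies at chr14:8258790-8259089 on the minus strand, and its match starts at base 260 (T4A, C12G). Slc25a20, the carnitine-acylcarnitine carrier of mitochondria, lies at chr9:108661886-108662185 on the plus strand, and its match starts at base 257 (C5G, A13G).
Acot4: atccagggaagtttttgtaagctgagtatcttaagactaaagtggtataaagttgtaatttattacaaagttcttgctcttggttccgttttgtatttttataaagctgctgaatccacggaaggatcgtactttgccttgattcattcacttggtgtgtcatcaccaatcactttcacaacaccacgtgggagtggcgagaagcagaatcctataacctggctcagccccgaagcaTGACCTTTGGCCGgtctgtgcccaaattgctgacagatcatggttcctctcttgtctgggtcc
Acox2: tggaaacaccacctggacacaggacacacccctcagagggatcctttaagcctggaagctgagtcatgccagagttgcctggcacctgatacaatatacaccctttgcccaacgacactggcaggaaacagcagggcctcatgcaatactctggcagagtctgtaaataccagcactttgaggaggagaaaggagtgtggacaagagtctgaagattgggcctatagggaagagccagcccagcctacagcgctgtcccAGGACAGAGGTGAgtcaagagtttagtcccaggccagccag
Slc25a20: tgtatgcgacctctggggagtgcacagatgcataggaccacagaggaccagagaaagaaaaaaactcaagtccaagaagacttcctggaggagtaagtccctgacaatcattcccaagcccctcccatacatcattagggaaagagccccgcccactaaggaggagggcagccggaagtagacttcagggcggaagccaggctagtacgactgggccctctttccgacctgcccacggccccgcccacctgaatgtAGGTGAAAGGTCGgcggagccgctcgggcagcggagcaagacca

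The omega-hydroxylases of the Cyp4a family, which oxidize fatty acids at the far end of the chain, had 2 of 4 tested genes higher with DEHP. The groups did not overlap at any of the 4, as at 6.11% of all genes tested. No test compared these genes with each other. Cyp4a14 was near 13 in every DEHP sample (13.37, 13.09, 13.28 and 13.16) and also high in the BBP samples (12.92, 11.88, 12.03 and 12.31), where the controls had a median of 7.97 and ran widely, from 4.50 to 12.16. The groups did not overlap, but the difference of 0.94 had a 95% interval from -0.92 to 2.80 (SE 0.932, limma adjusted p = 0.905), a width set largely by other groups of the fit. Within the 2 groups the SDs were 0.12 and 0.46, leaving out single samples gave 0.80 to 1.15, and the adjusted p was 0.111 with the 8 samples alone and 0.823 without the 3 controls numbered 32. Cyp4a31 had 11.49, 12.91, 12.92 and 12.09 with DEHP and 10.18, 8.83, 8.82 and 9.01 with BBP. BBP replicate 1 stood above the other BBP samples and below every DEHP sample. The gene was 8.82-fold higher with DEHP (3.14, SE 0.768, limma adjusted p = 0.0106), and the call ended without DEHP replicate 2 or 3 (2.95 each, adjusted p 0.0662 and 0.0563). Cyp4a12b was 2.69-fold higher (1.43, SE 0.364, limma adjusted p = 0.0161), a call that ended without DEHP replicate 3 or 4 or BBP replicate 4 (1.29 to 1.38). Cyp4a12a stood at 0.33 (adjusted p = 0.275), and Cyp4a10 had no match on the array.

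In peroxisomal beta-oxidation, 5 of 23 tested genes were higher with DEHP and none was lower, with a list median of 0.28, and 0.15 with the background of neqc. Ehhadh, the bifunctional enzyme of the pathway, had 11.10, 11.68, 12.68 and 12.09 with DEHP and 10.19, 9.39, 8.79 and 10.55 with BBP. The groups did not overlap, with DEHP replicate 1 and BBP replicate 4 the nearest samples. DEHP was 4.46-fold higher (2.16, SE 0.538, limma adjusted p = 0.0127), and the call ended without DEHP replicate 3 or BBP replicate 2 or 3 (1.84 to 2.04). Crat, carnitine acetyltransferase, was 3.29-fold higher (1.72, SE 0.365, limma adjusted p = 0.00191), with a difference of 0.98 under the background of neqc. The transporter Abcd2 (1.04) and the second bifunctional enzyme Hsd17b4 (0.64) were also higher, and Acox2 was higher by 0.32 (limma adjusted p = 0.0488). Without DEHP replicate 2 or 3, or BBP replicate 2 or 3, 3 genes of this list were called; without DEHP replicate 2 Abcd2 was not among them (0.81, adjusted p = 0.113), and Acox2 was lost in each of the 4 cases. Of 17 peroxins, Pex11a alone passed the test. It promotes the division of peroxisomes and was 3.46-fold higher (1.79, SE 0.283, limma adjusted p = 9.94e-06), with 10.15, 11.56, 11.22 and 11.40 against 9.26, 9.66, 9.51 and 8.74.

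Mitochondrial fatty acid oxidation had 7 of 27 tested genes higher with DEHP and none lower, with a median of 0.38. Cpt1b, the muscle form of the enzyme that loads fatty acids onto carnitine, had 5.89, 7.77, 7.71 and 7.14 with DEHP and 5.06, 5.16, 5.12 and 5.15 with BBP. All 4 BBP samples lay within the control range of 4.52 to 6.08, and the difference was 4.02-fold (2.01, SE 0.243, limma adjusted p = 1.19e-08). With the background of neqc it was 0.62. The carnitine transporter Slc22a5 of the cell membrane was 3.45-fold higher (1.79, SE 0.315, limma adjusted p = 9.22e-05). Cpt2 (0.87), the medium-chain dehydrogenase Acadm (0.91), the carrier Slc25a20 (0.95), the reductase Decr1 (1.18) and the isomerase Eci1 (0.77) were higher as well. The call of Decr1 ended without DEHP replicate 2 or BBP replicate 4 (1.10 and 1.13). Cpt1a, the liver form, was not detected in any of the 8 samples on this array, and no fold is given. With arrays centred on their medians 2 genes of this list were called.

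Lipid uptake, droplets and fasting signals had the most calls of any list, with 11 of 23 tested genes higher with DEHP and 1 lower and a median of 0.80 (0.47 to 0.80 over the other backgrounds and scalings). Pdk4, the kinase that holds back pyruvate oxidation when fat is burned, had 7.60, 10.31, 10.62 and 8.75 with DEHP and 5.81, 6.25, 7.01 and 6.62 with BBP. The groups did not overlap and DEHP was 7.45-fold higher (2.90, SE 0.537, limma adjusted p = 0.000216). Aldh3a2, which oxidizes fatty aldehydes, was 3.62-fold higher (1.86, SE 0.306, limma adjusted p = 2.36e-05). The very low density lipoprotein receptor gene Vldlr was detected in all 4 DEHP samples (mean 5.63) and in none of the BBP samples (mean 4.38). It was at least 2.12-fold higher with DEHP (limma adjusted p = 1.56e-06), where the bound is set by the dimmest signal with a detection p under 0.05 on each BBP array. The bound holds for this background only, since with that of neqc the difference was 0.18. Lpl, lipoprotein lipase, was 2.80-fold higher (1.48, SE 0.348, limma adjusted p = 0.00685), although BBP replicate 1 at 11.24 overlapped the DEHP samples (11.22, 11.81, 11.88 and 11.18). Its call ended without DEHP replicate 2 or BBP replicate 2 or 3 (1.10 to 1.39). The droplet genes Fitm1 (1.07), Fitm2 (1.04) and Cidec (0.75) and the lipases Mgll (1.19) and Pnpla2 (0.80) were higher. Dgat2, which makes triglyceride, was the 1 member lower with DEHP (-0.54, limma adjusted p = 0.0265). Without DEHP replicate 2 the higher count was 7, and Dgat2 was not called without DEHP replicate 2 or 3 or BBP replicate 1 or 3. The fasting hormone Fgf21 differed by 0.78 (95% interval -0.33 to 1.90, limma adjusted p = 0.779), and its groups overlapped. PPARA's own transcript differed by -0.17 (95% interval -0.97 to 0.63, limma adjusted p = 0.973), with 6.97 to 7.69 in the DEHP and 7.33 to 7.72 in the BBP samples.

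**Figure D2:**
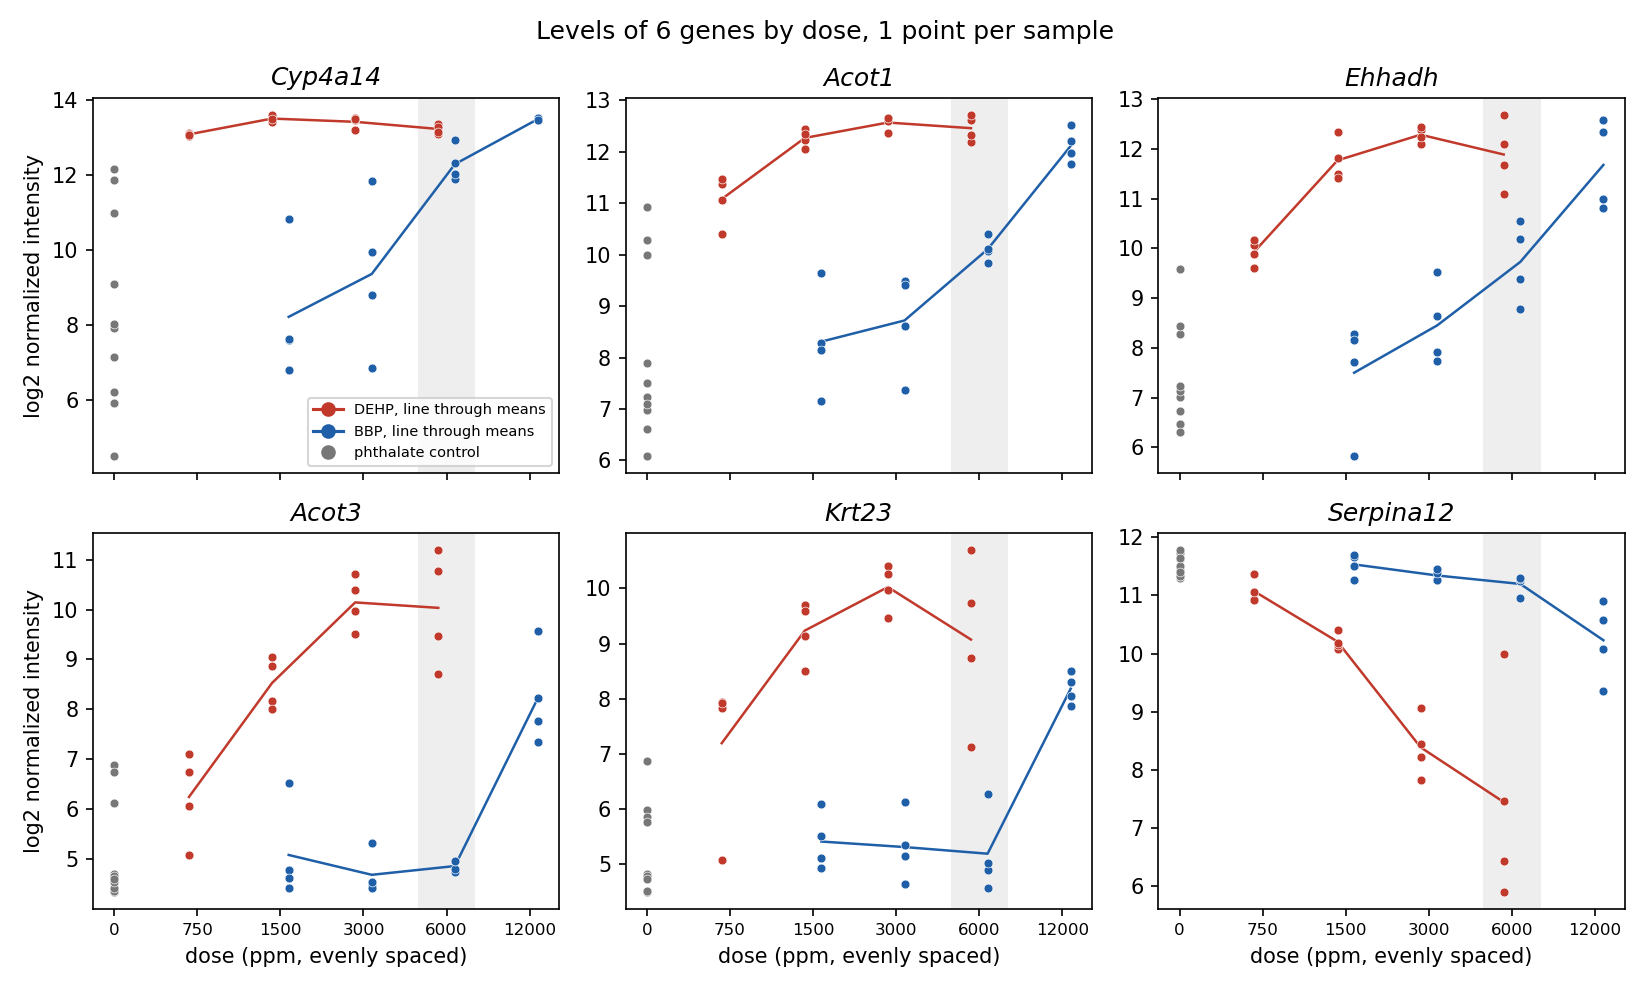
Log2 normalized intensity (vertical axis) of 6 genes by dose in ppm (evenly spaced horizontal axis), with 1 point per sample and lines through the group means of DEHP and BBP; grey points are the 10 controls and the shaded band marks 6000 ppm. For Cyp4a14 the groups are close at 6000 ppm and far apart at 1500 and 3000 ppm, whereas for Acot3 and Krt23 BBP samples lie above every control only at 12000 ppm, and Serpina12 falls with the dose of DEHP.

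The compounds were also set against each other at 3000 and 1500 ppm, where 466 (4.12%) and 192 (1.7%) genes were called. DEHP was higher at 237 (2.09%) and lower at 229 (2.02%) of the genes called at 3000 ppm, and higher at 127 (1.12%) and lower at 65 (0.574%) of those at 1500 ppm, as shares of all genes tested. Of the 189 genes higher with DEHP at 6000 ppm, 122 were called higher at 3000 ppm and 81 at 1500 ppm. Of the 65 lower genes the counts were 45 and 21. The difference had the same sign for 251 of the 254 at 3000 ppm and for 247 at 1500 ppm. A direct test of the change from 3000 to 6000 ppm called 0 genes with limma (475 at an unadjusted p under 0.05), and 3 without DEHP replicate 1. Against 1500 ppm it called 3 genes (0.0265%), with the difference more positive for 2 (0.0177%) and more negative for 1 (0.00883%). They were Serpina12 (-2.42, 95% interval -3.37 to -1.47), Cyp2b10 (1.86, 1.10 to 2.62) and Dgkh (0.73, 0.43 to 1.02), each with an adjusted p of 0.03. Dgkh, a diacylglycerol kinase, was named after its value was seen. Its means at 6000 ppm were low, 5.27 with DEHP and 4.44 with BBP. For Cyp2b10 the difference at 6000 ppm was 1.93 here and 0.32 with the background of neqc. The change from 1500 ppm was not refitted under other settings.

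Some fatty acid genes differed less at 6000 than at lower doses without passing that test. Cyp4a14 differed by 5.29 at 1500 ppm, 4.06 at 3000 ppm and 0.94 at 6000 ppm. The change from 3000 ppm was -3.12 (95% interval -5.75 to -0.48, limma adjusted p = 0.914). Its mean with DEHP was 13.50 ± 0.08 at 1500 ppm, 13.42 ± 0.14 at 3000 ppm and 13.23 ± 0.12 at 6000 ppm (SD, n = 4), so the DEHP level was nearly flat over these doses. With BBP the means were 8.21 ± 1.79, 9.36 ± 2.09 and 12.29 ± 0.46 at the same doses and 13.49 ± 0.03 at 12000 ppm. The brightest gene of each array stood at 14.20, and 41 to 65 genes were brighter than Cyp4a14 on the DEHP arrays. Whether the top of the intensity scale holds its differences down was not tested. Ehhadh differed by 4.27, 3.83 and 2.16 at the 3 doses, with BBP means of 7.50, 8.45 and 9.73. Acot3 differed by 3.45, 5.46 and 5.17, and Krt23 by 3.83, 4.72 and 3.89.

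CAR and PXR drug metabolism had 8 of 38 tested genes higher with DEHP and none lower, and a median of 0.34, which was 0.17 with the background of neqc. Cyp3a11, the main mouse Cyp3a enzyme and a PXR target, had 10.65, 13.85, 13.49 and 13.06 with DEHP and 9.97, 9.71, 10.43 and 10.55 with BBP. DEHP replicate 1 lay just above the BBP samples and the other 3 far above them, and the difference was 6.05-fold (2.60, SE 0.564, limma adjusted p = 0.00251). The CAR target Cyp2b10 was detected in 3 of 4 DEHP and 0 of 4 BBP samples (means 6.36 and 4.43). It was at least 3.50-fold higher with DEHP (limma adjusted p = 5.51e-07), and its call ended with the background of neqc (0.32, adjusted p = 0.790). Cyp2b9, a Cyp2b gene typical of female liver, had 4.75, 10.32, 6.42 and 6.50 with DEHP and 4.88, 4.43, 4.44 and 4.35 with BBP. It was detected in 3 of 4 DEHP and 1 of 4 BBP samples, and the groups overlapped through DEHP replicate 1. The difference was 2.47 (SE 0.459, limma adjusted p = 0.000218). DEHP replicate 2 carried much of it, and without that sample it was 1.37 (adjusted p = 0.016), while with the background of neqc it was 1.11. The bile acid and conjugate exporter Abcc3 was 2.68-fold higher (1.42, SE 0.307, limma adjusted p = 0.00226). Cyp2c39 (1.62), Cyp2c55 (1.30) and the epoxide hydrolase gene Ephx1 (1.44) were higher too. With the 8 samples fitted alone 4 genes of the list were called.

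The NRF2 antioxidant list gave 3 calls among 23 tested genes, all higher with DEHP, and a median of 0.15, or 0.07 with the background of neqc. Srxn1, sulfiredoxin, which restores oxidized peroxiredoxins, had 7.91, 8.97, 8.64 and 8.49 against 7.45, 7.39, 7.44 and 6.77. It was 2.36-fold higher (1.24, SE 0.192, limma adjusted p = 6.39e-06). The others were Ephx1, which the CAR list also holds, and Nqo1, which was not detected in any of the 8 samples and is given no fold. The call of Nqo1 ended without DEHP replicate 2 or BBP replicate 2. Among proteasome subunits 2 of 27 tested genes were higher with DEHP, beside 1.67% of all genes tested. A positive difference was found for 23 of the 27, and the median was 0.21. Psmd4, the ubiquitin receptor of the proteasome, was 1.69-fold higher (0.76, SE 0.160, limma adjusted p = 0.00181), and Psma5 was higher by 0.46. Without BBP replicate 3 the proteasome count was 4, without DEHP replicate 2, BBP replicate 2 or BBP replicate 4 it was 1, and with centred arrays it was 0.

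Cell division genes were higher with DEHP in small number, and a single sample carried much of it. Of 23 tested mitosis genes 5 were higher and none was lower, with a median of 0.36. Prc1, which bundles microtubules in the dividing cell, had 6.40, 6.52, 7.93 and 5.80 with DEHP and 5.57, 5.57, 5.35 and 5.68 with BBP. It was 2.17-fold higher (1.12, SE 0.323, limma adjusted p = 0.0465). The activator of mitotic exit Cdc20 had 5.39, 5.53, 7.24 and 4.87 against 4.72, 4.98, 4.77 and 4.65, a difference of 0.98 (SE 0.267, limma adjusted p = 0.0306). Aurka (0.87), Cdca3 (0.87) and the survivin gene Birc5 (0.70) were the other calls. DEHP replicate 3 was the highest DEHP sample for 22 of the 23 genes. The mean over the list was 5.03, 5.07, 5.96 and 4.85 with DEHP, 4.72, 4.77, 4.72 and 4.88 with BBP and 4.62 to 4.83 in the controls. DEHP replicates 1 to 3 thus lay above all BBP and control samples, and replicate 4 within the BBP range.

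Without DEHP replicate 3 no mitosis gene was called (Prc1 0.70, Cdc20 0.48, Aurka 0.61, Cdca3 0.44). Without DEHP replicate 1 or 4 the count was 8, and without any other sample it was 1. With the background of neqc the list median was 0.04, with 22 of 23 genes positive as before. Prc1 then differed by 0.37, Cdc20 by 0.19, Aurka by 0.12 and Cdca3 by 0.22. Ccnb1 and Cdk1, the cyclin and kinase that start mitosis, differed by 0.47 (limma adjusted p = 0.162) and 0.32 (adjusted p = 0.126). They passed without DEHP replicate 1 (0.59 and 0.39) or 4 (0.66 and 0.42). Ccnb1 had 4.53, 4.44, 6.28 and 4.30 with DEHP, against 4.31 to 4.52 with BBP. Among 21 DNA replication genes Mcm2, a helicase subunit, was the 1 call (0.62, SE 0.179, limma adjusted p = 0.0473). It ended when any of 6 samples was left out (DEHP replicates 2 to 4, BBP replicates 1, 2 and 4, with differences of 0.55 to 0.65). With the background of neqc Mcm2 differed by 0.07 and was not called. Nor was it called with no background correction, with the deposited matrix or with no filter. None of 17 G1 cyclins and inhibitors passed, Ccnd1 standing at 0.72 (95% interval -0.03 to 1.48, adjusted p = 0.554). Top2a stood at 0.36 (adjusted p = 0.345), Mcm5 at 0.57 (adjusted p = 0.353), and Mki67 had no match on the array.

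**Figure D3:**
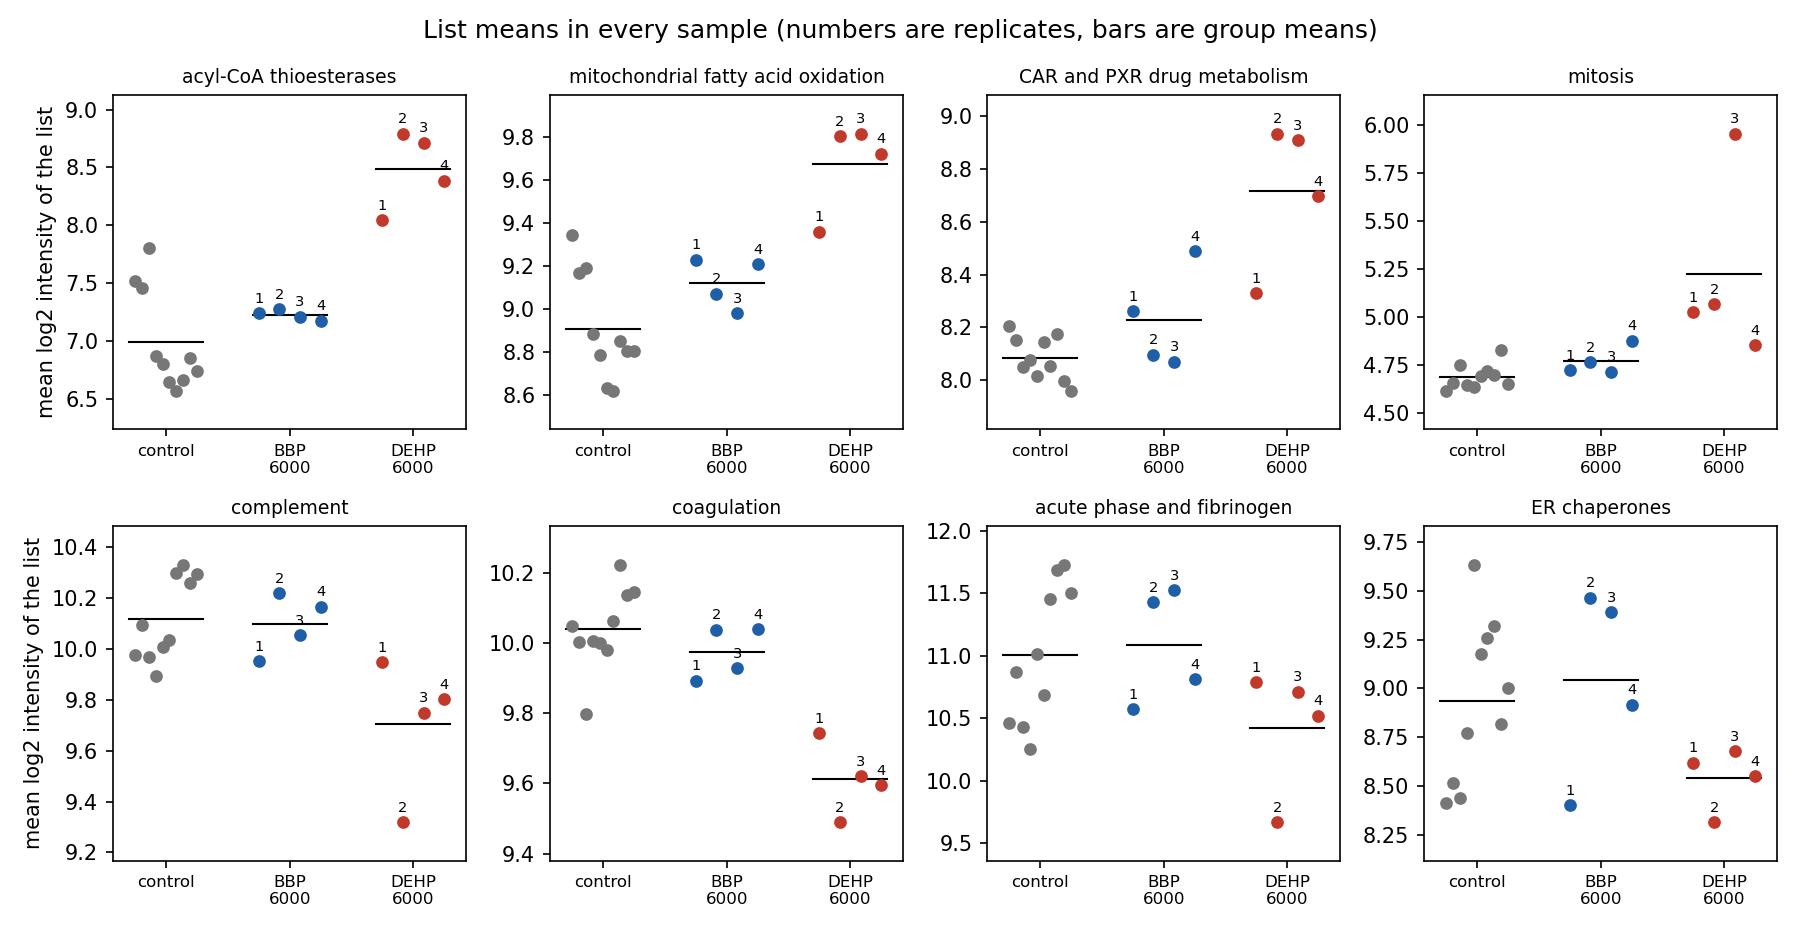
Mean log2 normalized intensity over 8 gene lists (vertical axes) in every sample of the controls, BBP 6000 ppm and DEHP 6000 ppm, with replicate numbers above the treated samples and bars at group means. DEHP replicate 3 stands apart in the mitosis list at 5.96, and DEHP replicate 2 is the lowest sample of the complement, coagulation and acute phase lists.

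Of 56 tested complement and coagulation genes 8 were lower and none was higher, 52 had a negative difference, and the median was -0.37. C9, which forms the pore of the complement attack complex, had 11.40, 10.01, 10.77 and 11.02 with DEHP and 11.80, 11.94, 11.62 and 11.75 with BBP. The groups did not overlap, the controls ran from 11.60 to 12.50, and BBP was 1.97-fold above DEHP (-0.98, SE 0.186, limma adjusted p = 0.000355). C6 (-0.75), C8b (-0.85) and C8g (-0.41), parts of the same complex, and C2 and Cfi (-0.55 and -0.48) were lower too. The clotting factor gene F11 was lower by 0.91 on the log2 scale (-0.91, SE 0.149, limma adjusted p = 1.89e-05), with 9.90, 9.05, 9.19 and 9.73 against 10.33, 10.16, 10.49 and 10.54. Serpinf2, which inhibits plasmin, was lower by a smaller amount (-0.47, adjusted p = 0.0288). Without DEHP replicate 2 the complement count went from 6 to 1, with C6 at -0.49 and C8b at -0.68 (adjusted p 0.0929 and 0.0649). The call of C2 ended without any of 5 samples and that of Serpinf2 without any of 6, and with centred arrays the counts were 1 of complement and 0 of coagulation.

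The acute phase and fibrinogen list had a median of -0.58. It mixes genes that hepatocytes secrete in inflammation with other plasma protein genes (Alb, Ttr, Trf and Ahsg) and the signal genes Socs3 and Stat3. Its median and counts therefore do not measure a single response. Of 37 tested genes 34 were negative and 2 were called lower, beside 0.574% called lower of all genes tested. Saa4, a constitutive serum amyloid A, had 11.04, 9.10, 10.15 and 11.03 with DEHP and 11.43, 12.20, 12.44 and 12.37 with BBP. It was 3.43-fold higher with BBP (-1.78, SE 0.439, limma adjusted p = 0.0114), a call that ended without DEHP replicate 2 or BBP replicate 3 or 4 (-1.37 to -1.69). Crp was the other (-0.78, SE 0.200, limma adjusted p = 0.0173), lost without any of 5 samples. The samples of the 2 groups overlapped in the list mean, with 10.79, 9.67, 10.71 and 10.52 for DEHP, 10.57, 11.43, 11.53 and 10.81 for BBP and 10.26 to 11.73 in the controls. Left-out samples gave counts from 0 to 4: 4 without DEHP replicate 1, 1 without DEHP replicate 3 or BBP replicate 2, and 0 without DEHP replicate 2 or BBP replicate 3 or 4. Among ER chaperones, which fold secreted proteins, 20 of 21 tested genes were negative with a median of -0.45, against 0.08 at 3000 ppm and -0.24 at 1500 ppm. The list means of the groups overlapped, with 8.62, 8.32, 8.68 and 8.55 for DEHP and 8.40, 9.46, 9.39 and 8.92 for BBP. Pdia5 alone was called (-0.66, SE 0.192, limma adjusted p = 0.0468), and not without any of 5 samples.

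Of 26 tested genes that are higher in male than in female mouse liver, 6 were lower with DEHP and 1, Cyp4a12b, was higher, with a median of -0.40. Egfr, the receptor for epidermal growth factor, had 10.97, 9.47, 9.82 and 10.44 with DEHP and 11.19, 11.31, 11.15 and 11.23 with BBP, against 10.79 to 11.58 in the controls. It was 2.07-fold higher with BBP (-1.05, SE 0.219, limma adjusted p = 0.0015). Gna14 (-1.17), Selenbp2 (-1.03), the steroid enzyme gene Hsd3b5 (-0.93), C8b and C6 were the other lower members. Without DEHP replicate 2 none of the 6 was called (Egfr -0.81, adjusted p = 0.0567). Of 16 female-biased genes 6 were higher with DEHP and none was lower, with a median of 0.51 that was 0.17 with the background of neqc, and 2 were called with the 8 samples alone. Those were Acot3, Cyp2b9, Acot4, Lpl, Vldlr and Abcd2, of which all but Cyp2b9 also stand in the fatty acid lists.

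**Figure D4:**
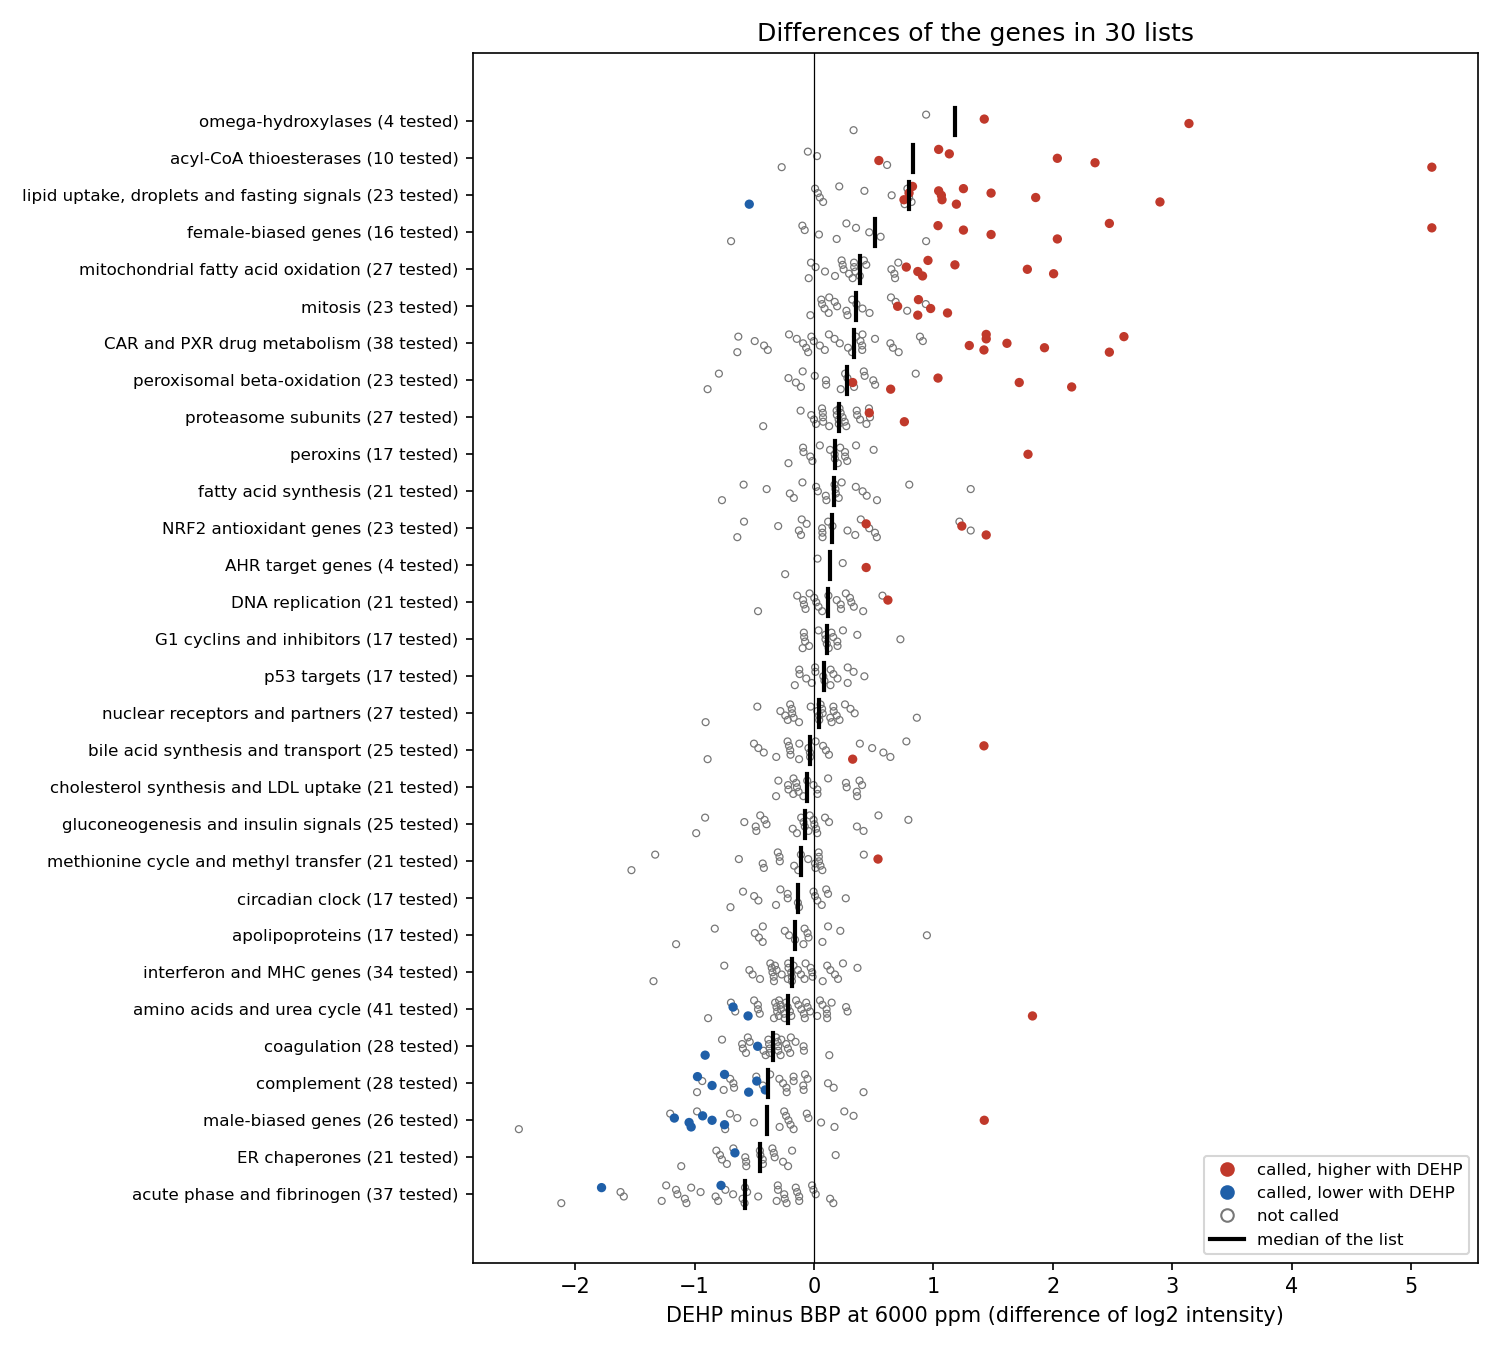
Difference of log2 intensity, DEHP minus BBP at 6000 ppm (horizontal axis), for every tested gene of 30 lists, ordered by the list median (black bars); filled points are called genes and open points are not. Lists of fatty acid genes lie near the top with medians up to 1.18, and complement, ER chaperones and acute phase genes lie at the bottom with medians down to -0.58.

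Outside these lists, the gene with the largest fall was Serpina12 (vaspin), a serpin secreted by liver and fat. It had 9.99, 6.42, 5.91 and 7.46 with DEHP and 10.96, 11.24, 11.28 and 11.31 with BBP, and was detected in 2 of 4 and 4 of 4. The controls lay at 11.30 to 11.77, next to the BBP samples. BBP was 13.5-fold above DEHP (-3.75, SE 0.336, limma adjusted p = 9.94e-13), and with the 8 samples fitted alone its adjusted p was 0.0884. The DEHP samples spread more widely than the BBP samples, while the SE comes from the spread over all groups of the fit. The mean with DEHP was 11.07, 10.20, 8.39 and 7.44 at 750, 1500, 3000 and 6000 ppm, against 10.23 with BBP at 12000 ppm. Slc22a7, an organic anion transporter of hepatocytes, had 6.93, 6.22, 5.82 and 6.29 with DEHP and 7.15, 7.89, 7.97 and 7.24 with BBP (-1.25, SE 0.224, limma adjusted p = 0.000127). The pair Nat8f1 (-1.03), an N-acetyltransferase family member, and Fkbp11 (-1.05), a secretory pathway foldase, was also lower. The call of Fkbp11 ended without any of 4 samples (-0.88 to -1.03). Gm4956 was lower by 1.67 on the log2 scale (-1.67), or -0.53 with the background of neqc, and its call ended without DEHP replicate 3 (-1.35).

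The keratin gene Krt23 had the second largest rise. It had 7.13, 10.69, 8.74 and 9.73 with DEHP and 6.27, 4.56, 4.89 and 5.02 with BBP, where BBP replicate 1 was the highest. DEHP was 14.8-fold higher (3.89, SE 0.502, limma adjusted p = 7.11e-08). Ly6d, a small surface protein, was 9.83-fold higher (3.30, SE 0.434, limma adjusted p = 1.26e-07), and it was detected in 2 of 4 BBP samples. Clstn3, a calsyntenin, had 6.91, 8.46, 7.86 and 8.36 against 5.63, 5.69, 5.73 and 4.97 (2.39, SE 0.286, limma adjusted p = 8.21e-09). Adam32 (2.20) and Fbp2, the muscle fructose bisphosphatase (2.18), were higher as well. All BBP samples lay inside the control range, and Adam32 was detected in 3 and Fbp2 in 1 of the 4. Csad, which makes the taurine precursor hypotaurine, was 3.55-fold higher (1.83, SE 0.358, limma adjusted p = 0.000517) and was the 1 of 41 amino acid genes higher with DEHP. Prodh (-0.68) and the glutaminase Gls2 (-0.55) were the 2 lower ones, and single left-out samples (7 and 5 of the 8) ended their calls. Of 21 methionine cycle and methyl transfer genes Chdh was the 1 call. It was higher with DEHP (0.54), and the call ended without DEHP replicate 3 or 4.

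Several lists held no call in this comparison. Cholesterol synthesis and LDL uptake had 0 calls among 21 tested genes with a median of -0.06, against 0.56 at 3000 ppm. Fatty acid synthesis had none among 21 (median 0.17), gluconeogenesis none among 25 (-0.08), apolipoproteins none among 17 (-0.16) and p53 targets none among 17 (0.09). Interferon and MHC genes had none among 34 (-0.19), clock genes none among 17 (-0.13) and nuclear receptors and partners none among 27 (0.04). At an unadjusted p under 0.05 limma gave 1, 1, 2, 5, 1, 5, 0 and 2 genes of these 8 lists in the order named. Under other settings 1 apolipoprotein gene was higher (no background correction, neqc, an offset of 50, the deposited matrix), 2 were higher and 1 lower with array quality weights, and 1 was higher and 1 lower without DEHP replicate 1; array weights also called 1 nuclear receptor gene. With 4 samples per group these counts do not show that the compounds act alike on these genes.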

How the data were processed

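Liver RNA was labelled as biotin cRNA and hybridized to Illumina bead arrays, per the labels' protocols. The authors deposited 1 average signal intensity per gene and array without background subtraction or normalization, as far as the values show, and a detection p-value for each, per the file headers. The intensity was background-corrected with normexp (background from the detection p-values, offset 16), taken to log2 and quantile-normalized over all 77 arrays. Genes with a detection p under 0.05 on at least 3 of the 77 arrays were tested, so a tested gene need not be detected in the 8 samples. limma 3.58.1 (R 4.3.3) fitted 18 group means with the label number as a random block (correlation 0.0993), and p-values were adjusted by Benjamini-Hochberg over 11324 genes. The fit was tested on simulated data with independent noise of the same spread in every group. Such data cannot show whether an SE is too small for a gene that varied more in the 2 groups compared. The text names a fixed panel, the 10 largest rises and falls (reference symbol, no overlap of groups), and from each list at most 4 of its called genes; other called list members were picked after their values were seen. Members and lists were chosen with earlier results of these data known. Of 18138 array names 14307 matched a reference symbol, 2680 matched a synonym and 1151 matched none. Alternatives changed the background, scaling, filter, samples, block and weights.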

Additional observations from a re-analysis of the deposited data

Results flagged for a closer look

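Among 140 groups of 4 values of the named genes, 8 held a sample set apart from the others by Dixon's test, where chance gives about 1 in 20. In the BBP group, replicate 1 was high for Cyp4a31 (10.2), Ephx1 (11.2) and Abcc3 (10.1), and replicate 4 was low for Clstn3 (4.97) and Srxn1 (6.77). In the DEHP group, replicate 2 was high for Fgf21 (9.45), and replicate 3 was high for Ccnb1 (6.28) and Cdk1 (5.48). The cause was not tested.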

How the results depend on the processing

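None of the 70 named genes tested changed sign under 21 alternatives, of which 8 left out 1 of the 8 samples. All 61 called ones lost their call under at least 1 alternative. None could keep it under every one, since the fit of the 8 samples with the replicate block called 0 genes. Centring each array on its median gave 131 called genes (112 higher, 19 lower; 85.5% higher against 74.4%) and 17 fatty acid genes. Fitting only the 8 samples gave 63 (54 higher, 9 lower) and 16 fatty acid genes. Array quality weights gave 495 (316 higher, 179 lower; 63.8% higher), 245 of them among the 254, and 1 gene for the change from 3000 ppm. Correlations of DEHP and BBP samples with the same replicate number were 0.189, 0.0543, -0.273 and 0.283. Those of samples with different numbers ran from -0.475 to 0.528. Taken over all genes tested, they cannot decide whether the replicate numbers mark a shared condition at some genes. With the replicate block in the fit of 8 samples the counts were 0, 0 and 0, with 0 fatty acid genes (limma, 1216 genes at an unadjusted p under 0.05). Leaving out 1 sample gave 111 to 330 called genes, 97 to 229 higher, 14 to 101 lower, 21 to 37 fatty acid genes and 0 to 3 genes changed from 3000 ppm. The cause of these moves was not tested. Of 61 called named genes 29 stayed called in every alternative fitted to the whole series with all 8 samples kept, 24 also with each of the 8 left out in turn, and 16 with only the 8 samples. The fit without the 3 controls numbered 32, chosen after seeing the data, gave 272 called genes (201 higher, 71 lower) and ended the call of Prc1 (1.12, adjusted p = 0.0517). Signal over background limits dim genes: 28 called genes were undetected in all BBP samples and 3 in all DEHP samples.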

Other observations

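Further called genes outside the lists were chosen after their values were seen. Slc27a1, a fatty acid transport protein, had means of 6.33 with DEHP and 4.55 with BBP, where it was not detected. Gpat3 (1.08), which starts triglyceride synthesis, and Hsd17b11 (1.70), a lipid droplet dehydrogenase, were higher with DEHP. The annexin gene Anxa2 (1.50) and the galectin gene Lgals1 (1.24) were higher, as were the glutathione transferase genes Gstt2 (1.76) and Mgst3 (1.16). Cyp2c70 (-0.91), which makes muricholic acids in mice, and Hsd11b1 (-0.59), which activates glucocorticoids, were lower. All passed limma's adjusted p threshold over all genes tested.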
